A study of Homo sapiens with 6 samples.

Results

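Expression of the cholesterol and fatty acid synthesis genes was followed in the human colorectal carcinoma line HCT116 after CRISPR targeting of MUC3A, which encodes a mucin anchored in the membrane of intestinal epithelial cells. The list holds 34 named genes, taken by symbol from the 15284 genes present in both deposited tables: 17 enzymes of sterol synthesis, 5 regulators of the pathway, 3 genes of sterol transport and 9 genes of fatty acid synthesis and use. KO2 and KO1 cells each carried a different MUC3A guide RNA delivered with Cas9 by lentiCRISPR v2 virus, at a multiplicity of infection of 10 and with puromycin at 2 µg/mL for 72 h. WT cells had no MUC3A guide; the labels give their genotype as wild type and their treatment as negative control, and the protocol mentions a scrambled virus under the same selection. The guide-treated cells are described as selected cell lines, and nothing says whether they grew from single clones. Each group has 2 poly(A) RNA libraries, 1 with a name starting HCT116 and 1 with a name starting HCT; these are called the HCT116 set and the HCT set, and the labels do not explain the names. The labels do not say whether the 2 libraries in a group are from separate cultures; the p-values reflect the spread among these libraries alone, and that spread may be technical.

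Cells build cholesterol from acetyl-CoA through mevalonate and squalene, and build palmitate from the same acetyl-CoA through malonyl-CoA. Both routes are switched on by the SREBP transcription factors, which are held in the endoplasmic reticulum with their escort SCAP while the INSIG proteins are bound, and which travel to the Golgi and are cleaved when sterols run low. INSIG1 is itself a target of SREBP, so its transcript is widely read as a marker of pathway activity, and colorectal tumours commonly make much of their own fatty acid.

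The promoters of the genes that differed between groups are shown because the SREBP factors act there, with SREBF2 beside them as the regulator of the sterol arm. The sequences are RefSeq promoters on GRCh38.p14, from 250 bases before to 50 bases after the annotated start of each gene and read on its own strand. Capitals mark any of 3 motifs, searched on both strands with no overlap between them in these sequences: the sterol regulatory element TCACNCCAC, the E-box CACGTG and the CCAAT box CCAAT.
INSIG1: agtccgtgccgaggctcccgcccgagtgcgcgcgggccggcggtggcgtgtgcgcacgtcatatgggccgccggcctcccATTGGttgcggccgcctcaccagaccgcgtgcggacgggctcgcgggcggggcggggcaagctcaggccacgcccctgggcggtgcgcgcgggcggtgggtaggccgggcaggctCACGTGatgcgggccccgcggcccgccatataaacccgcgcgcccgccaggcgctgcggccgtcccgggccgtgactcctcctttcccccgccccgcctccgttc
STARD4: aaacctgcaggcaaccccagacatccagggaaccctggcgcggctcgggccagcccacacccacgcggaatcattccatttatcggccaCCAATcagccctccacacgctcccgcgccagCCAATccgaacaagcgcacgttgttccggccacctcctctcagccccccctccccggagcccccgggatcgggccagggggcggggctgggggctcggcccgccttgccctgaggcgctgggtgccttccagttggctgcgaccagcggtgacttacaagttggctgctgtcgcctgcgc
FADS1: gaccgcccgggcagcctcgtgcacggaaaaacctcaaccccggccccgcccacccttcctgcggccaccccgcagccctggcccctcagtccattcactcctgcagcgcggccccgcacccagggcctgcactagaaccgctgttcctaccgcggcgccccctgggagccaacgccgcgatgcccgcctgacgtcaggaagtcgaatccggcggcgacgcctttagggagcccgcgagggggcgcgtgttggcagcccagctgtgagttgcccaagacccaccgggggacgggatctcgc
SREBF2: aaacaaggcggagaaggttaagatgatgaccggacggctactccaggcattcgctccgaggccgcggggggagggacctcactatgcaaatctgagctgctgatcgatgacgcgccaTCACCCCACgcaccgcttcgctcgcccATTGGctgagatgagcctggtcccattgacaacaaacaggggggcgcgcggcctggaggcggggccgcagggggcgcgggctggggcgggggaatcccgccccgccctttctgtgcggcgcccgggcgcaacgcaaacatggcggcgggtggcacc

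The INSIG1 promoter (chr7:155297628-155297927, plus strand) held an E-box that starts 55 bases before the gene's start and a CCAAT box 170 bases before it. The STARD4 promoter (chr5:111512486-111512785, minus strand) held CCAAT boxes at 161 and 130 bases before the start. The SREBF2 promoter (chr22:41832855-41833154, plus strand) held a sterol regulatory element at 133 bases and a CCAAT box at 106 bases before the start, and the FADS1 promoter (chr11:61816954-61817253, minus strand) held no match. The table had 43 promoters for 30 of the 34 genes; FASN, FDFT1, SQLE and ACAT2 had none. The sterol regulatory element was in 1 of these 43 (2.33%), against 1.13% of all 35116 promoters of the same length. The E-box was in 6 of the 43 (14%), against 7.26% of all, and the CCAAT box in 25 (58.1%), against 34.6% of all. A match describes letters only, and a promoter without one may hold a site with other letters or outside this stretch.

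Library totals ran from 13638724 to 17830282 counts. Libraries of 1 group differed strongly between the sets: with the set as a term in the model, the biological coefficient of variation was 0.118, against 0.383 without it. Groups were compared by edgeR's quasi-likelihood test with group and set as terms and Benjamini-Hochberg adjustment over 12678 tested genes, all 34 listed genes included. Log2 fold changes carry the standard error (SE) with n = 2 libraries per group, a gene is called at an adjusted p under 0.05, and CPM are counts scaled to the TMM-adjusted library size. MUC3A transcript stood at 24.6 CPM (HCT116) and 30.03 CPM (HCT) in KO2, at 28.6 and 52.8 CPM in KO1, and at 25.1 and 52.7 CPM in WT. It was called with neither guide (edgeR adjusted p = 0.237 in KO2 and 0.962 in KO1), and a transcript level does not check a knockout made by small insertions or deletions. Of 13 colorectal epithelial markers in the tables, 10 were above 1 CPM in all 6 libraries, while CDX1, VIL1 and LGR5 were below 1 CPM in all 6. The share of counts from mitochondrial genes was 6.95% and 8.90% in the HCT116 and HCT libraries of KO2, 4.20% and 5.94% in KO1, and 4.84% and 5.34% in WT.

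Per length, the fatty acid arm held the 2 most abundant of these transcripts. CPM divided by the gene's exon length in kilobases (GENCODE, all annotated exons merged) ran from 156 to 329.7 over the 6 libraries for FASN, the synthase that makes palmitate, and from 163 to 396 for SCD, the desaturase that makes oleate. ACLY, which makes cytosolic acetyl-CoA from citrate, followed at 65.8 to 81.3 CPM per kilobase. SREBF1, which encodes SREBP-1, the main activator of the fatty acid arm, ran from 42.1 to 83.5 CPM per kilobase, and SREBF2, which encodes SREBP-2, the main activator of the sterol arm, from 36.8 to 60.2. FDPS, which makes farnesyl diphosphate, was the most abundant sterol enzyme at 32.4 to 69.8 CPM per kilobase by its mean in WT, and the other 15, FDFT1 aside, ran down to LSS, lanosterol synthase, at 1.55 to 2.71.

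At the low end stood 3 genes below 1 CPM per kilobase in all 6 libraries. ABCA1, the cholesterol exporter, ran from 0.125 to 0.773 CPM per kilobase, FDFT1, squalene synthase, from 0.0531 to 0.213, and ACACA, the acetyl-CoA carboxylase that makes malonyl-CoA, from 0.0535 to 0.193. FDFT1 had 4 and 9 counts in the HCT116 and HCT libraries of KO2, 7 and 5 in KO1, and 14 and 17 in WT. ACACA had 20 and 20 counts in KO2, 9 and 25 in KO1, and 32 and 33 in WT. Both genes were thus lower in each guide-treated library than in either WT library. They were picked for lying over 0.5 log2 from WT in both sets with KO2, so this order is partly fixed by the choice. How many of all genes have the same order was not counted. Neither was called: FDFT1 gave -1.51 ± 0.62 in KO2 (edgeR adjusted p = 0.210) and -1.33 ± 0.63 in KO1 (0.60), and ACACA gave -0.95 ± 0.49 (0.319) and -0.96 ± 0.50 (0.668). The enzymes before and after each of them in the pathway, FDPS and SQLE for FDFT1 and ACLY and FASN for ACACA, stood above 19 CPM per kilobase in every library. How the authors' counting treated these 2 genes was not tested.

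**Figure D1:**
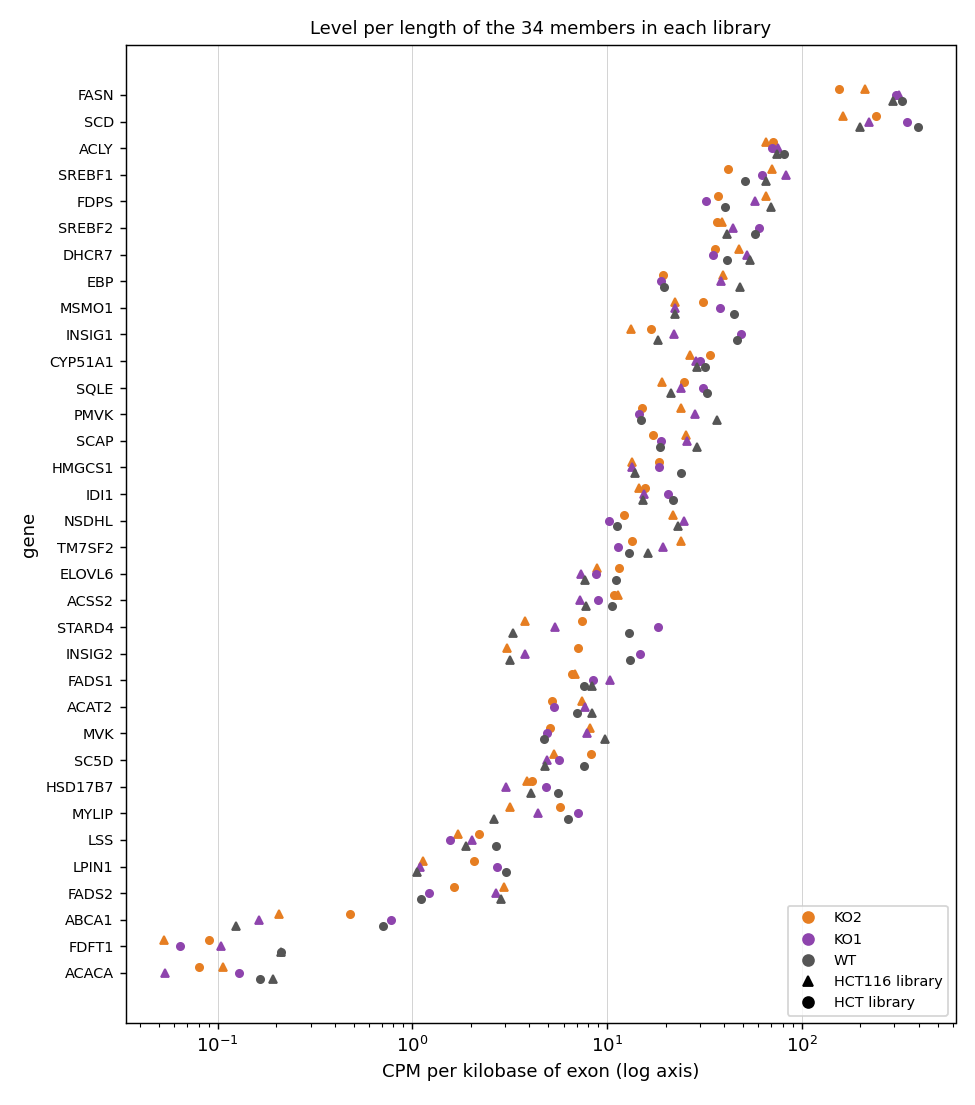
CPM per kilobase of exon (log axis) of the 34 genes in each of the 6 libraries, ordered by the mean in WT; colours mark KO2, KO1 and WT, triangles the HCT116 libraries and circles the HCT libraries. FASN and SCD lie between 156 and 396 in every library, and ABCA1, FDFT1 and ACACA lie below 1 in every library.

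KO2 was compared with WT to find which genes of the pathway differ with that guide. INSIG1 and FASN fell, and no other of the 34 genes was called, so 2 of 34 (5.88%) passed the edgeR test, both lower, against 4.61% of all 12678 tested genes in either direction, 2.15% higher and 2.47% lower. The count is thus near the background of this comparison. DESeq2 called 3 of the 34, against 4.84% of all genes, and limma-voom 2, against 4.96%. The median log2 fold change of the 34 was -0.22, against 0.00 over all tested genes, with 27 of 34 negative. The median was -0.21 over the 25 genes of the sterol arm and -0.24 over the 9 of the fatty acid arm. By the ratios within a set, the median of the 34 was -0.09 in the HCT116 set and -0.28 in the HCT set, and that of the sterol arm -0.08 and -0.29. RNA was measured in bulk, so fewer cells of a type and less RNA per cell cannot be told apart. Without the set as a term edgeR called 0 of the 34 genes and 0 of all genes, with 2 of 34 and 309 of all at an unadjusted p under 0.05.

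INSIG1, the sterol sensor that retains SCAP and SREBP in the endoplasmic reticulum, had 48.6 CPM (HCT116) and 61.4 CPM (HCT) in KO2, against 66.9 and 169.5 CPM in WT. It fell 1.95-fold in KO2 (log2 fold change -0.96 ± 0.20, edgeR adjusted p = 0.0206). Both KO2 libraries lay below both WT libraries, and the fall was deeper in the HCT set (log2 ratio -1.46) than in the HCT116 set (-0.46). FASN had 1981 and 1456 CPM in KO2, against 2771 and 3088 CPM in WT, a 1.72-fold fall (-0.78 ± 0.17, edgeR adjusted p = 0.0244). Here too the groups did not overlap, and the log2 ratio was -0.48 in the HCT116 set, with a deeper -1.08 in the HCT set. Both genes are described because they were called, and how many of all genes separate in this way was not counted. Without the HCT library of WT both calls ended: INSIG1 stood at -0.66 (edgeR adjusted p = 0.0837) and FASN at -0.58 (0.236).

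SCD came next by p in the fatty acid arm. It had 874 CPM (HCT116) and 1289 CPM (HCT) in KO2, against 1069 and 2121 CPM in WT. The KO2 library was the lower in each set, at log2 ratios of -0.29 and -0.72, but SCD was not called by edgeR (-0.51 ± 0.15, adjusted p = 0.0829). SCD did pass with DESeq2, and with edgeR when no gene was filtered for low counts. ACLY gave -0.18 ± 0.12, and FADS1, a desaturase of polyunsaturated fatty acids, gave -0.25 ± 0.13. The fitted values of ACSS2, which makes acetyl-CoA from acetate, of the elongase ELOVL6 and of the desaturase FADS2 were positive, at 0.29, 0.13 and 0.30, and none was called.

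Among the regulators all 5 had a negative fitted value in KO2, from -0.96 in INSIG1 to -0.08 in SREBF1, and only INSIG1 was called. A negative fitted value was found in 6340 of all 12678 tested genes. SREBF2 had 296 and 278 CPM in the HCT116 and HCT libraries of KO2, against 312 and 434 CPM in WT (-0.35 ± 0.15, edgeR adjusted p = 0.228). INSIG2, the second INSIG protein, had 12.1 and 27.9 CPM in KO2, against 12.6 and 51.8 CPM in WT (-0.51 ± 0.21, edgeR adjusted p = 0.195). For both genes the KO2 library of the HCT116 set was close to its WT library and that of the HCT set was clearly lower. SREBF1 had 567 and 338 CPM in KO2, against 526 and 409 CPM in WT, higher in one set and lower in the other. SCAP, the SREBP escort, had 164 and 111 CPM in KO2, against 186 and 121 CPM in WT (-0.15 ± 0.12).

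None of the 17 sterol synthesis enzymes was called in KO2 by edgeR, while 1 had an unadjusted p under 0.05 (FDFT1, described above), against 19.4% of all tested genes. Their fitted log2 fold changes, FDFT1 aside, ran from -0.30 in ACAT2, the first enzyme of the route, and in PMVK, a kinase of the mevalonate steps, to 0.30 in TM7SF2, a sterol reductase. KO2 was below WT for 15 of the 17 in the HCT116 set and for 11 of the 17 in the HCT set. Some of these ratios were very small, as in MSMO1 at -0.008 in the HCT116 set. Of all 12678 tested genes, 6112 were below WT in the HCT116 set and 6470 in the HCT set. STARD4, a cytosolic carrier of sterol between membranes, MYLIP, a ubiquitin ligase that degrades lipoprotein receptors, and ABCA1 gave -0.33, 0.04 and -0.08. All 3 transport genes were higher in KO2 than in WT in the HCT116 set and lower in the HCT set.

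**Figure D2:**
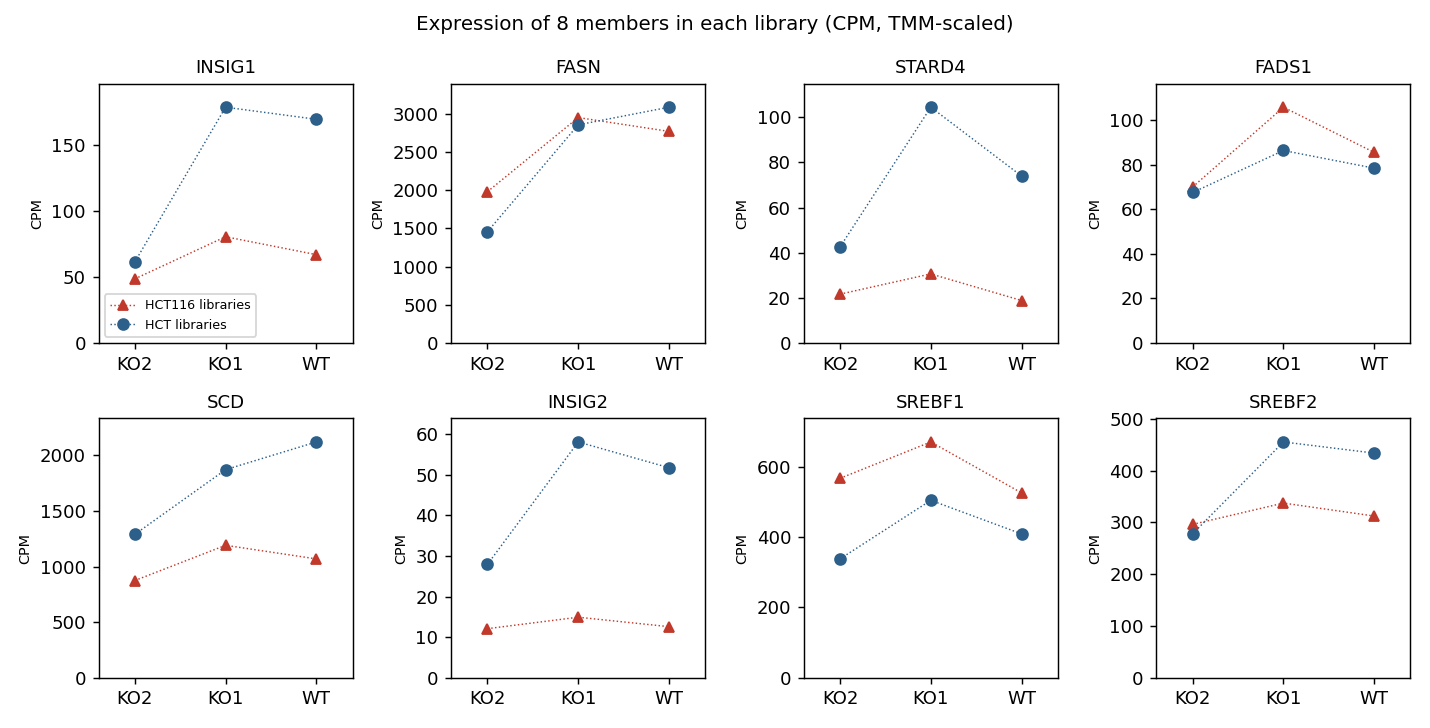
CPM of 8 genes in each library, with KO2, KO1 and WT from left to right; triangles are the HCT116 libraries, circles the HCT libraries, and dotted lines join the libraries of 1 set. For INSIG1 and FASN both KO2 points lie below both WT points, and for STARD4, INSIG2 and SREBF2 the KO2 point is low mainly in the HCT set.

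KO1 was compared with WT to ask the same of its guide. None of the 34 genes was called by edgeR, against 1.03% of all tested genes, 0.678% higher and 0.347% lower. At an unadjusted p under 0.05 there were 3 (8.82%), against 1122 of all tested genes (8.85%). DESeq2 called 0 of the 34, against 1.62% of all genes, and limma-voom 0, against 1.1%. Without the set as a term edgeR called 0 of the 34 and 0 of all genes, with 0 of 34 and 173 of all at an unadjusted p under 0.05. The median was -0.07 over the 34 genes and 0.00 over all tested genes, with -0.08 in the sterol arm and -0.06 in the fatty acid arm. All 3 medians turned direction between the sets: by the ratios of the HCT116 set they were 0.02, 0.025 and 0.02, and by those of the HCT set -0.12, -0.08 and -0.18.

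The 3 genes with the smallest p were STARD4, FDPS and SREBF1. STARD4 had 30.6 and 104 CPM in the HCT116 and HCT libraries of KO1, against 18.8 and 74.0 CPM in WT (0.58 ± 0.20, edgeR adjusted p = 0.340). FDPS had 214 and 120.4 CPM in KO1, against 259 and 149.8 CPM in WT (-0.30 ± 0.11, edgeR adjusted p = 0.416). SREBF1 had 671 and 505 CPM in KO1, against 526 and 409 CPM in WT (0.33 ± 0.14, edgeR adjusted p = 0.487). Each of the 3 differed in the same direction in both sets, though the range of each KO1 pair overlapped that of the WT pair. When only KO1 and WT libraries were fitted, all 3 were called, STARD4 and SREBF1 higher and FDPS lower, beside 7.07% of all tested genes. The same 3 were called without the HCT library of KO2, beside 6.96% of all, and STARD4 and FDPS without its HCT116 library, beside 6.52%. The count of 3 of 34 (8.82%) is near that background.

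INSIG1 and FASN were close to WT with this guide. INSIG1 had 80.5 and 179 CPM in KO1, against 66.9 and 169.5 CPM in WT (0.16 ± 0.20, edgeR adjusted p = 0.902). FASN had 2952 and 2857 CPM in KO1, against 2771 and 3088 CPM in WT (-0.02 ± 0.17, adjusted p = 0.989 by edgeR). SREBF2 had 337 and 455 CPM, INSIG2 14.9 and 58.1 CPM and SCAP 165 and 122 CPM in KO1, each beside the WT values given above and none of them called (0.09 ± 0.15, 0.20 ± 0.20 and -0.08 ± 0.12). Of the 17 sterol enzymes, 10 were below WT in the HCT116 set and 16 in the HCT set. The single exception in the HCT set was MVK, mevalonate kinase, at a log2 ratio of 0.06. Over all 12678 tested genes, 6283 were below WT in the HCT116 set and 6272 in the HCT set. All 3 transport genes were above WT in both sets, at fitted values of 0.20 in ABCA1, 0.43 in MYLIP and 0.58 in STARD4.

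KO2 was then set against KO1 directly, which tests whether these cells differ and cannot assign a difference to the guide. The WT libraries stayed in the fit, where they bear on the set term and the spread. Compared with KO1, KO2 was lower in INSIG1, STARD4, FASN and FADS1, and no gene of the 34 was called higher. These 4 of 34 (11.8%) stand against 9.62% of all tested genes in either direction, 4.24% higher and 5.39% lower. DESeq2 called 7 of the 34, against 8.89% of all genes, and limma-voom 6, against 10.3%. The median log2 difference was -0.08 over the 34 and 0.00 over all tested genes, at -0.07 in the sterol arm and -0.10 in the fatty acid arm. The fatty acid median turned direction between the sets, at 0.05 by the ratios of the HCT116 set and -0.35 by those of the HCT set. Without the set as a term edgeR called 0 of the 34 and 0 of all genes, with 1 of 34 and 513 of all at an unadjusted p under 0.05.

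INSIG1 had 48.6 and 61.4 CPM in KO2, against 80.5 and 179 CPM in KO1, 2.18-fold lower in KO2 (-1.12 ± 0.20, edgeR adjusted p = 0.00504). FASN had 1981 and 1456 CPM in KO2, against 2952 and 2857 CPM in KO1, 1.70-fold lower (-0.76 ± 0.17, edgeR adjusted p = 0.0152). For both genes the KO2 pair lay wholly below the KO1 pair. STARD4 had 21.6 and 42.5 CPM in KO2, against 30.6 and 104 CPM in KO1, 1.87-fold lower (-0.91 ± 0.21, edgeR adjusted p = 0.0187). FADS1 had 70.0 and 67.5 CPM in KO2, against 106 and 86.4 CPM in KO1, 1.39-fold lower (-0.48 ± 0.12, edgeR adjusted p = 0.0350). The FADS1 pairs did not overlap, whereas the STARD4 pairs did, and for STARD4 the log2 ratio was -0.50 in the HCT116 set and -1.29 in the HCT set. These genes were picked for their calls, and how many of all genes have pairs that do not overlap was not counted.

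These calls rest on few libraries. Without the HCT library of KO1 all 4 ended, at edgeR adjusted p of 0.0531 for INSIG1, 0.170 for FASN, 0.227 for STARD4 and 0.204 for FADS1. Without its HCT116 library FASN (0.0660) and FADS1 (0.440) ended, without the HCT library of KO2 STARD4 ended (0.0565), and with total counts in place of TMM FADS1 ended (0.0546). Of the regulators not called, INSIG2 stood at -0.71 ± 0.20 (edgeR adjusted p = 0.0516), SREBF2 at -0.44 ± 0.15 (0.0944), SREBF1 at -0.41 ± 0.14 (0.0890) and SCAP at -0.07 ± 0.12 (0.763). All 5 regulators were lower in KO2 than in KO1 in both sets, though SCAP in the HCT116 set only at a log2 ratio of -0.006. Of all 12678 tested genes, 6369 were lower in the HCT116 set and 6372 in the HCT set. In the fatty acid arm SCD stood at -0.49 ± 0.15 (edgeR adjusted p = 0.0624) and ACSS2 at 0.46 ± 0.15 (0.0814). The sterol enzymes gave 0 calls, with a median of 0.02 (-0.05 by the ratios of the HCT116 set and 0.05 by those of the HCT set) and 1 of 17 at an unadjusted p under 0.05, against 25% of all tested genes.

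Other values moved with this comparison. Of 10 tested colorectal epithelial markers 6 were called in KO2 against KO1, against 9.62% of all tested genes. Of the 6, 5 were lower (KRT8, KRT18, KRT19, CDH1 and ELF3) and 1 higher, against 5.39% and 4.24% of all tested genes. The higher one was CLDN3, a tight junction protein, at 46.6 CPM (HCT116) and 25.9 CPM (HCT) in KO2, against 20.9 and 17.6 CPM in KO1. The keratins KRT8, KRT18 and KRT19 make up most of the list's sum: the summed CPM of the 13 in the tables was 9836 (HCT116) and 5685 (HCT) in KO2, 15684 and 9352 in KO1, and 9008 and 6901 in WT. Of 7 HEK293T lineage genes, markers of the line that packaged the virus, 5 were below 1 CPM in all 6 libraries and the other 2, PAX2 and ENO2, were called in opposite directions. PAX2 was higher, at 29.6 and 18.5 CPM in KO2, against 21.5 and 9.51 CPM in KO1, and ENO2 lower, at 92.1 and 134 CPM in KO2, against 109.7 and 299 CPM in KO1. The 7 summed to 122 and 154 CPM in KO2, 131 and 309 CPM in KO1, and 138 and 221 CPM in WT. The 8 leukocyte markers summed to 14.4 and 6.96 CPM in KO2, 21.5 and 22.4 CPM in KO1, and 10.7 and 10.2 CPM in WT, most of it CD68, which was called lower in KO2, while PTPRC, found on all leukocytes, was at 0 in 4 of the 6 libraries. The 4 fibroblast markers summed to 55.8 and 67.4 CPM in KO2, 35.4 and 64.3 CPM in KO1, and 42.9 and 65.9 CPM in WT, with 0 called, and 4 liver and fat markers summed to at most 1.31 CPM in any library. The part of these genes and of the mitochondrial share in the lipid gene results was not tested.

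**Figure D3:**
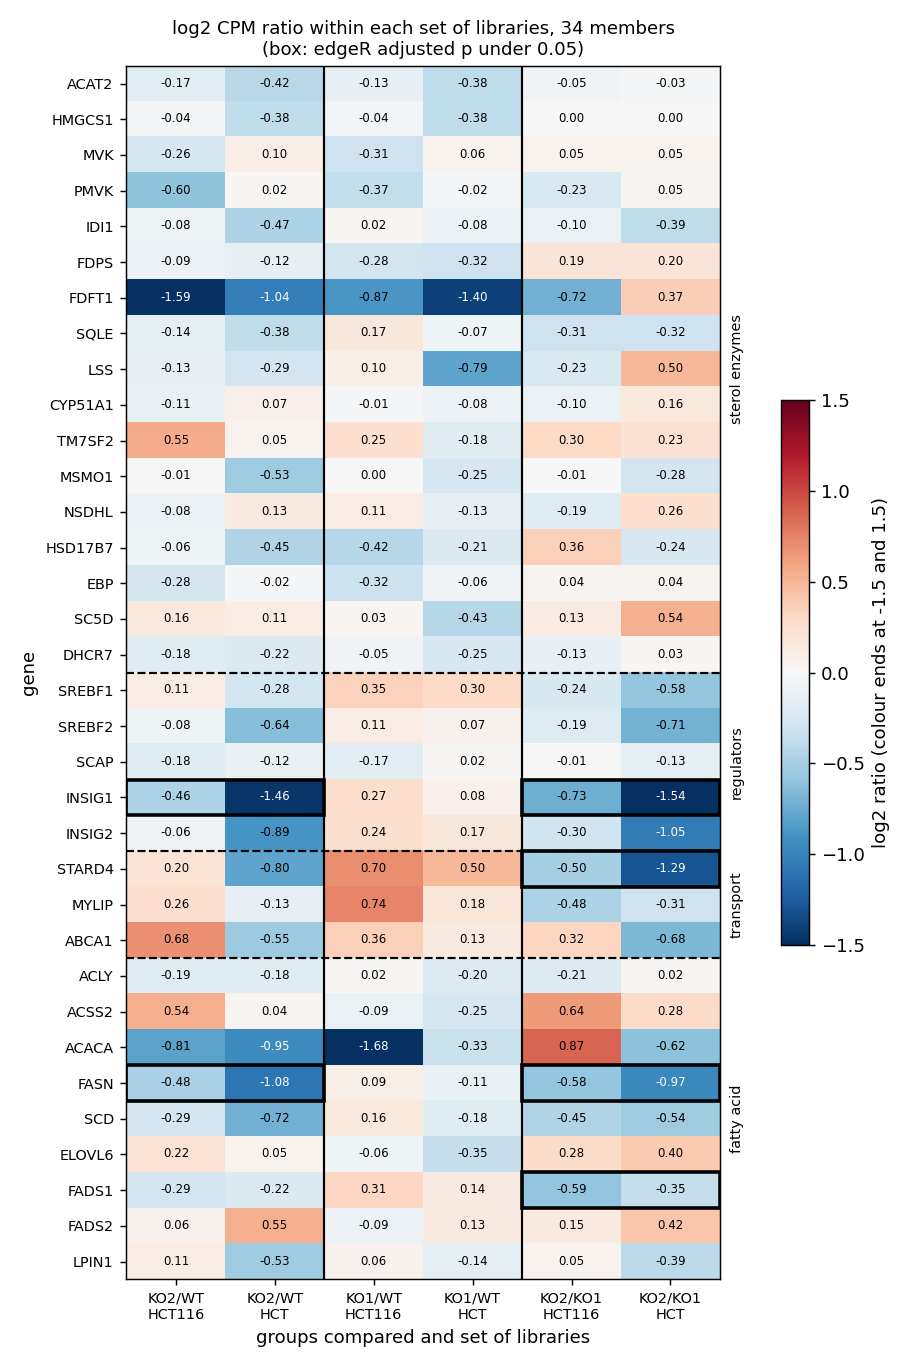
Log2 CPM ratios of the 34 genes (rows, by role) for KO2 over WT, KO1 over WT and KO2 over KO1, each in the HCT116 and the HCT set; red is higher and blue lower in the first-named group, and a box marks an edgeR adjusted p under 0.05. Boxes lie at INSIG1 and FASN for KO2 over WT and at INSIG1, STARD4, FASN and FADS1 for KO2 over KO1, and no box lies in the KO1 over WT columns.

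The sets of libraries differed in these genes more than the groups did. Of the 34, 25 (73.5%) were called between the HCT116 and the HCT libraries by edgeR, 11 higher and 14 lower in HCT116, against 63.9% of all tested genes, 31.8% higher and 32.1% lower. Over all genes 4036 were higher and 4069 lower, and with total counts in place of TMM 3119 were higher and 5005 lower, as that scaling moves the median of all genes by -0.17. The sterol arm gave 10 higher and 11 lower of 25, and the fatty acid arm 1 higher and 3 lower of 9. The direction split the sterol enzymes: 8 of 17 were higher and 6 lower in the HCT116 libraries.

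EBP, a sterol isomerase late in the route, had 95.5, 92.6 and 116 CPM in the HCT116 libraries of KO2, KO1 and WT, against 46.7, 45.4 and 47.2 CPM in their HCT libraries (1.12 ± 0.11, edgeR adjusted p = 1.04e-05). FADS2 had 32.8, 29.5 and 31.5 CPM in the HCT116 libraries in that order of groups, against 18.0, 13.5 and 12.3 CPM in the HCT libraries (1.11 ± 0.14). NSDHL, which removes the methyl groups of early sterols, had 43.7, 49.8 and 46.2 CPM, against 24.5, 20.5 and 22.4 CPM (1.05 ± 0.13). PMVK had 30.9, 36.2 and 46.9 CPM in HCT116, against 19.4, 18.8 and 19.1 CPM in HCT (0.97 ± 0.14). For each of these 4 genes all HCT116 libraries lay above all HCT libraries, though the 4 were picked for the largest differences in that direction.

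ABCA1 had 2.35, 1.85 and 1.42 CPM in the HCT116 libraries of KO2, KO1 and WT, against 5.44, 8.77 and 8.0 CPM in their HCT libraries (-1.95 ± 0.29, edgeR adjusted p = 0.000151). INSIG2 was lower in the HCT116 set by -1.74 ± 0.17, STARD4 by -1.58 ± 0.17 and INSIG1 by -0.95 ± 0.16, with the CPM given above. LPIN1, a phosphatidate phosphatase of triglyceride synthesis, had 13.5, 13.1 and 12.5 CPM in HCT116, against 24.7, 32.4 and 35.8 CPM in HCT (-1.23 ± 0.16). The gap between the sets was narrowest in KO2 for ABCA1, INSIG2, STARD4, INSIG1 and LPIN1. For INSIG1 the log2 ratio of HCT116 over HCT was -0.34 in KO2, against -1.15 in KO1 and -1.34 in WT. FASN was not called between the sets (0.11 ± 0.14).

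**Figure D4:**
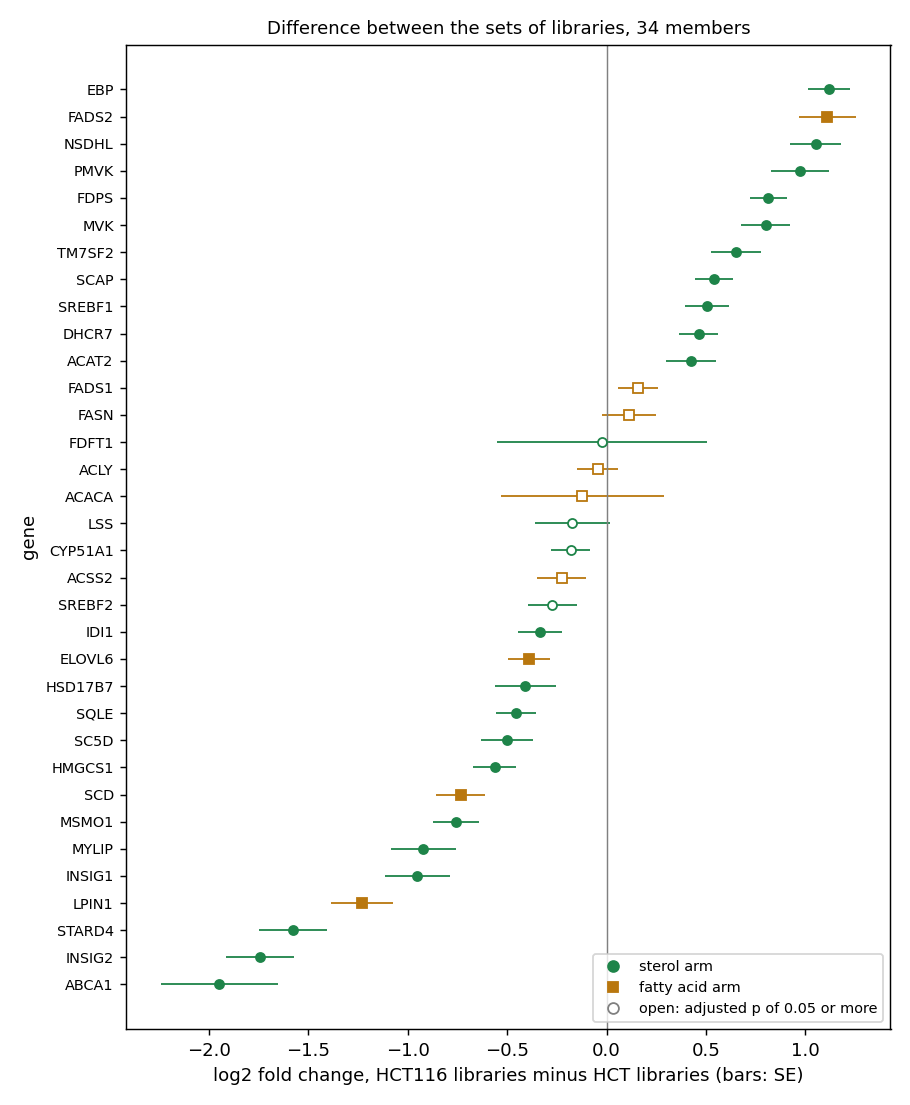
Log2 fold change of HCT116 over HCT libraries for the 34 genes, with SE bars, over all 3 groups; circles are the sterol arm, squares the fatty acid arm, and open symbols were not called by edgeR. Values run from 1.12 in EBP to -1.95 in ABCA1, with 11 genes called higher and 14 called lower in the HCT116 libraries.

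Beyond the 34 genes, 89 tested genes of the surrounding pathways were counted: SREBP processing, other sterol synthesis, sterol handling and other fatty acid synthesis. In KO2 against WT 2 were called, both lower (2.25%), against 4.61% of all tested genes. MVD, the decarboxylase that follows PMVK in the mevalonate route, had 114 CPM (HCT116) and 55.7 CPM (HCT) in KO2, against 222 and 92.0 CPM in WT (-0.85 ± 0.13, edgeR adjusted p = 0.00374). DGAT2, which makes triglyceride, had 6.77 and 4.92 CPM in KO2, against 10.7 and 11.7 CPM in WT (-0.95 ± 0.23, edgeR adjusted p = 0.0398). The DGAT2 call ended without any 1 of 4 libraries, at edgeR adjusted p of 0.0557 without the HCT library of KO1, 0.0745 without that of KO2, 0.276 without the HCT library of WT and 0.0803 without its HCT116 library.

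In KO1 against WT 1 of the 89 was called (1.12%), against 1.03% of all tested genes. ACSL5, which activates long-chain fatty acids, had 26.1 and 23.0 CPM in the HCT116 and HCT libraries of KO1, against 83.3 and 76.2 CPM in WT, 3.25-fold lower (-1.70 ± 0.13, edgeR adjusted p = 0.000123). In KO2 it stood at 81.9 and 79.7 CPM, a log2 fold change of 0.02 ± 0.12 against the same WT libraries. The 2 sets gave nearly the same ACSL5 value within each group.

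Between KO2 and KO1, 8 of the 89 were called (8.99%), 4 higher and 4 lower in KO2, against 9.62% of all tested genes. ACSL5 was higher by 1.72 ± 0.13, and CYB5B, an outer mitochondrial membrane cytochrome, had 1456 and 1594 CPM in KO2, against 780.3 and 770.3 CPM in KO1 (0.97 ± 0.15, edgeR adjusted p = 0.00212). OSBPL8, a lipid transfer protein of the endoplasmic reticulum, was higher by 0.61 ± 0.13. Lower in KO2 were ABCG1, a sterol exporter, at 3.94 and 4.92 CPM in KO2, against 10.4 and 15.0 CPM in KO1 (-1.52 ± 0.27, edgeR adjusted p = 0.00510), DGAT2 (-1.33 ± 0.23) and MVD (-0.56 ± 0.13). The remaining 2, named after their values were seen, were OSBPL2, higher by 0.52, and PAQR3, lower by 0.57 on the log2 scale. Without the HCT library of KO1 the calls of MVD (edgeR adjusted p = 0.365), DGAT2 (0.0575), CYB5B (0.0788), OSBPL8 (0.245), OSBPL2 (0.306) and PAQR3 (0.0958) ended, and without its HCT116 library those of MVD (0.0743), OSBPL8 (0.106), OSBPL2 (0.349) and PAQR3 (0.382).

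The strand setting of the counting is not given in the sources available, so overlapping genes may share reads. In GENCODE annotation on GRCh38, 83.2% of the exon bases of CYP51A1 and 52.3% of those of ACAT2 lie in exons of other genes, and their values are uncertain. The share was 18.6% for FDPS, 15.0% for HMGCS1, 14.8% for IDI1 and under 8% for the rest, at 0% for INSIG1 and FASN. HSD17B7 has near-identical copies, which may share its reads.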

How the data were processed

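Poly(A) RNA from 6 libraries was sequenced after NEBNext Ultra library preparation, per the labels' protocols. The deposited tables hold the authors' raw read counts per gene symbol, per the file headers. STAR, HTSeq 0.6.0, DESeq2 and hg18 appear in the submitters' processing notes with no role for each. Another 40 per-sample columns, the normalized values among them, were not used. The 2 tables were joined on symbol: 15284 genes were shared, and 264 (KO1) and 429 (KO2) stood in 1 table only. Column names give group and prefix but no replicate number.

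Counts were tested in edgeR 4.0.16 (R 4.3.3) with TMM, filterByExpr by group at a minimum count of 10, and glmQLFit and glmQLFTest on all 6 libraries with group and prefix as terms, which left 2 residual degrees of freedom. Adjustment was Benjamini-Hochberg over 12678 genes at 0.05. The SE is the absolute log2 fold change over the square root of F. CPM use TMM-scaled totals, and log2 CPM ratios a prior count of 2. Levels between genes are CPM per kilobase of merged GENCODE exons on GRCh38, matched by symbol for all 34, since the deposited length-scaled columns were not used; the authors' gene models may differ. Prefix pairs libraries across groups: deviations from group means correlated across genes at 0.815 (KO2 and WT), 0.867 (KO1 and WT) and 0.783 (KO2 and KO1). The 2 libraries of a group differed by a chi-square per degree of freedom of 81.5 to 122, so neither is a copy. Scripts were tested on simulated data.

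The members, the related lists and the design were chosen with earlier results of these data known, so none is independent evidence. Values in every library are given for called members, the 5 regulators, the 3 smallest p per guide comparison, the 4 largest set differences each way, and members over 0.5 log2 from WT in both sets, and up to 6 called related genes per guide comparison. Alternatives were DESeq2 1.42.0, limma-voom (limma 3.58.1), other scalings and filters, no prefix term, fewer groups, a fold minimum of 1.5 and leaving out each library.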

Additional observations from a re-analysis of the deposited data

Results flagged for a closer look

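KO2 and KO1 cells were compared directly, which cannot tell an effect of the guide from other differences between the cell lines. For 4 genes KO2 differed from KO1 by the edgeR test of the difference itself. These are 11.8% of the 34, near the 9.62% of all tested genes called in that comparison. KO2 minus KO1 on the log2 scale was -1.12 for INSIG1, -0.91 for STARD4, -0.76 for FASN and -0.48 for FADS1. INSIG1 and FASN stood below WT in both KO2 libraries and close to WT in KO1, whereas STARD4 stood above its WT library in both KO1 libraries and in the HCT116 library of KO2 and below it in the HCT library of KO2. FADS1 stood below WT in both KO2 libraries and above it in both KO1 libraries. All 4 calls ended without the HCT library of KO1.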

How the results depend on the processing

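The groups hold 2 libraries each, and the set term decides the calls: with no replicate block (the set term left out), 0 genes, 0 of the 34 and 0 related genes were called in each guide comparison. In KO2 against WT, the fitted values moved with the library left out. INSIG1 stood at -1.42 without the HCT116 library of KO2 and at -0.52 without the HCT library of KO2. FASN stood at -1.03 and -0.54 in the same order. Without the HCT library of WT, INSIG1 stood at -0.66 and FASN at -0.58. Counts for KO2 against WT over leaving out each library ran from 0 to 10 of the 34, 317 to 2170 of all genes and 1 to 14 related genes. For KO1 against WT they ran from 0 to 3, 69 to 901 and 1 to 8, and for KO2 against KO1 from 0 (without the HCT library of KO1) to 12 (without the HCT116 library of KO2), 391 to 3202 and 2 to 21. A group left with 1 library was taken to vary as the other groups do. With only the groups compared, KO1 against WT gave 3 of the 34, 879 genes and 8 related genes. KO2 against KO1 then gave 8 of the 34 beside 1569 of all genes, against 4 and 1220 in the fit of all 6 libraries. With DESeq2, KO1 against WT gave 205 genes, KO2 against WT 4 related genes (limma-voom 4) and KO2 against KO1 7 of the 34 beside 1127 of all genes. With no filter on low counts, KO1 against WT gave 316 genes and 2 related genes, and KO2 against WT 949 genes and 5 related genes. KO2 against KO1 gave 8 of the 34 with no filter, beside 1609 of all genes. Called and over 1.5-fold were 5 related genes in KO2 against KO1, beside 1006 of all genes. Between sets they were 15 of the 34 and 33 related genes, where 63.9% of all tested genes were called with no fold minimum. The fatty acid median in KO2 was -0.19 in the HCT116 set, -0.22 in the HCT set and -0.27 with DESeq2 size factors, the sterol median in KO1 was 0.025 in the HCT116 set, and the fatty acid median between sets was -0.30 with total counts. Of 314 alternative values for 23 results on named genes, 279 kept their call, 35 lost it and 0 turned direction. All 35 losses fell on the guide comparisons and none on the differences between the sets. Each result of a guide comparison lost its call at least when the set term was left out. For the set results that alternative left out the group term instead, and those results were picked for the largest differences. The losses of guide and set results are thus not comparable. Between the sets, 21 to 28 of the 34 were called over leaving out each library. The fit of all 6 libraries called 25 of the 34 there, against 63.9% of all tested genes. Fitting only the groups compared has no meaning between sets and was not run. The cause of these shifts was not tested.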
